A study of Mus musculus with 9 samples.

Results

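The genes described are 10 genes of brown adipocyte heat production, measured in whole mouse aorta, the vessel whose outer wall carries perivascular fat. They were Ucp1, Otop1, Cox7a1, Cox8b, Cidea, Elovl3, Pank1, Acot11, Dio2 and Ppargc1a, chosen by name. All 10 were found among the 33293 gene identifiers by matching Ensembl identifiers to symbols in GENCODE mouse release 21, and all 10 passed the filter on low values, at least 1 FPKM in at least 4 libraries, as did 13383 genes in all. FPKM counts fragments per kilobase of transcript, scaled to the depth of the library, so that levels of genes of different length can be compared. The Apoe_KO group held 4 libraries from male Apoe-knockout mice and the WT group 5 libraries from male wild type C57BL/6J mice. All were aged 7 to 8 weeks and were kept on normal chow, with no other treatment named. The labels name the aorta as the tissue and do not say how much surrounding fat was kept at dissection. Not given in the sources used here were the background strain of the knockout mice and the part of Apoe that the allele removes. Nothing in the labels says that each library came from a separate animal, so the p-values measure only the spread between these samples.

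Brown adipocytes burn fatty acids in densely packed mitochondria and release the energy as heat, because the carrier Ucp1 lets protons return across the inner membrane without making ATP. Cold activates the programme through noradrenaline, beta-adrenergic receptors and cyclic AMP, which frees fatty acids and raises transcription of Ucp1, Dio2 and Ppargc1a. The fat around the thoracic aorta of mice resembles brown fat, and these genes are commonly used to recognise it.

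The proximal promoters show where cyclic AMP response elements lie relative to the start sites of the genes that this pathway is known to induce. Windows of 250 bases before to 50 bases after a start site were taken from RefSeq (GRCm38.p6). Of these, 10 windows for 8 of the 10 genes were searched. No window was found for Elovl3 and none was used for Cidea, so the counts below leave out both genes. The search covered both strands. The full cyclic AMP response element TGACGTCA was in 1 of the 8 genes, Dio2, and in 1.8% of all 32544 distinct mouse windows. Its core TGACG, which the full element contains, was in 3 genes and in 20.9% of all windows. The windows of those 3 genes are printed 5′ to 3′ along the gene, with matches to TGACG or its reverse complement CGTCA in capitals.
Ucp1, chr8:83290098-83290397, plus strand: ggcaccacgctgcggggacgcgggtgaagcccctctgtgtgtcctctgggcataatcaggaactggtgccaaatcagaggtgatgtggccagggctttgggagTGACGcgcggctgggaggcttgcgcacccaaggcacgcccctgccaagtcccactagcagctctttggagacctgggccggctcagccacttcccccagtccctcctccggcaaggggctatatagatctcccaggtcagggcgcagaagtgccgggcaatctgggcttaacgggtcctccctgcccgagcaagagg
Dio2, chr12:90738989-90739288, minus strand: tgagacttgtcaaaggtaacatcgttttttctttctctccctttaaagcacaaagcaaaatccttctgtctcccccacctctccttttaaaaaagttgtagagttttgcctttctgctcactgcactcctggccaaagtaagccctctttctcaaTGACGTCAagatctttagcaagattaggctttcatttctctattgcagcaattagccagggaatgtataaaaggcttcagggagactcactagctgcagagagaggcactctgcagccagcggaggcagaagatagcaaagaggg
Ppargc1a, chr5:51567676-51567975, minus strand: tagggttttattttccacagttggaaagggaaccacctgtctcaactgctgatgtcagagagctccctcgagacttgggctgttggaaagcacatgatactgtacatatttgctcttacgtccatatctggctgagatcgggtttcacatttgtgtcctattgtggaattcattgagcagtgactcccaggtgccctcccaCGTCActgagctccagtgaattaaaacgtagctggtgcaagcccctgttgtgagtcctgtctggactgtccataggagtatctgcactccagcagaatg
The core began 147 bases before the RefSeq start of Ucp1 and, in reverse, 49 bases before that of Ppargc1a. The full element of Dio2 began 95 bases before its RefSeq start. The Dio2 window lies outside the GENCODE span of the gene, which ends at 90738438 and was used for its level. The oestrogen-related receptor element AAGGTCA was in 0 of the 8 genes, against 4.71% of all windows. The same held for AGGTCA repeated in tandem with 1 base between the copies (0.0399% of all windows) or with 4 (0.0154%), patterns that overlap AAGGTCA in its last 6 bases, and for the C/EBP palindrome TTGCGCAA (0.184%). TATAAA was in 3 genes, Cox8b, Dio2 and Pank1, against 13.6% of all windows. These matches describe the letters in these windows and nothing more, and distal enhancers lie outside them.

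Apoe, the deleted gene, was at 6.35, 6.35, 5.64 and 6.55 FPKM in Apoe_KO libraries 1 to 4 and at 528, 592, 513, 643 and 536 FPKM in WT libraries 1 to 5, so each library followed its label. Depths inferred from the values were 17.0 to 19.8 M reads or fragments. By limma on log2(FPKM + 1), with a Benjamini-Hochberg adjusted p below 0.05, Apoe_KO was higher in 459 genes and lower in 524. That split depended on scaling, with 630 higher and 269 lower after median centring and 485 higher and 240 lower after quantile normalization. The median log2 fold change of all tested genes was -0.07. Apoe_KO 4 and WT 2 stood apart in lymphocyte markers, whose summed level was 422 and 491 FPKM there and 18.4 to 43.2 FPKM in the other libraries. Apoe_KO 2 and WT 3 stood apart in transcripts of the mitochondrial genome, which made up 28.7% and 28.2% of all FPKM there and 19.2% to 22.7% elsewhere. Heat shock genes were higher in Apoe_KO, with 8 of 10 called higher, where 3.43% of all tested genes were. Their summed level was 1453 to 1977 FPKM in Apoe_KO and 652 to 820 FPKM in WT.

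Ucp1, Cidea, Cox8b and Cox7a1 were abundant in both genotypes and the other 6 thermogenic genes were lower, at means of 4.35 to 20.1 FPKM, and none of the 10 passed the test for a difference between them. Of the 10, limma called 0, where 7.35% of all tested genes were called, and 1 gene, Acot11, had an unadjusted p below 0.05, where 24.6% of all tested genes did. With limma voom on reads recovered from the FPKM values, 0 of 10 were called as well. The groups overlapped for all 10, while they did not overlap for 12.4% of the tested genes. The fitted log2 fold changes were negative for 9 of 10, beside 63.9% of all tested genes, and their median was -0.22. RNA of whole tissue cannot tell fewer cells of a type from less RNA per cell, and this holds for each level below.

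**Figure D1:**
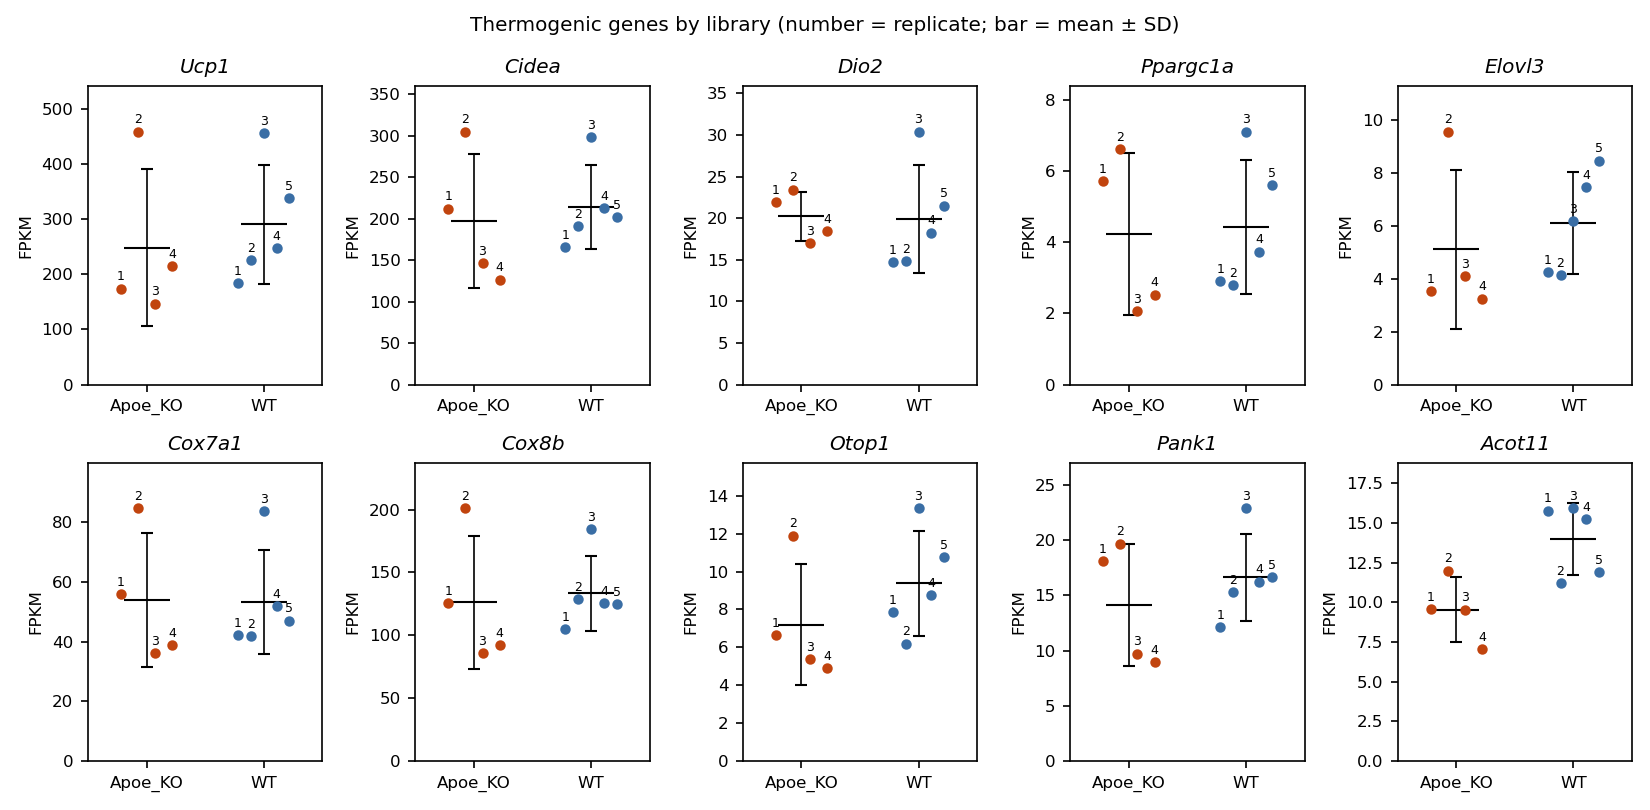
FPKM of the 10 thermogenic genes in each library, with Apoe_KO (orange) left of WT (blue) in every panel, the replicate number above each point and bars for the mean ± SD (n = 4 Apoe_KO, n = 5 WT). The groups overlap in every panel, and the highest point of either group is Apoe_KO 2 or WT 3 in every panel except that of Elovl3 in WT, where it is WT 5.

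Ucp1 (ENSMUSG00000031710, chromosome 8, 83290352 to 83298452, plus strand, GRCm38), the uncoupling carrier itself, was at 174, 459, 146 and 215 FPKM in Apoe_KO libraries 1 to 4 and at 184, 226, 456, 247 and 338 FPKM in WT libraries 1 to 5. Apoe_KO 2 and WT 3 were the highest and nearly level, Apoe_KO 3 and 1 were the lowest, and the groups overlapped. The mean level was 249 ± 143 FPKM in Apoe_KO (SD, n = 4) and 290.3 ± 108 FPKM in WT (SD, n = 5). On the log2 scale the difference was -0.30 (SE 0.36, limma adjusted p = 0.650), with a 95% interval of -1.10 to 0.51. As a ratio of Apoe_KO to WT the interval ran from 0.466 to 1.42, so a fall or rise within that range was not excluded by these libraries. Ucp1 ranked 90 of 13383 tested genes by mean level, and 4514 to 14053 reads lay behind its values. Its spread within groups was wide, with an SD of 0.61 on the log2 scale, at the 96.7th percentile of tested genes.

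Otop1 (ENSMUSG00000051596, chromosome 5, 38275972 to 38304217, plus strand), which encodes a proton channel of the otopetrin family, had 6.64, 11.9, 5.37 and 4.91 FPKM in the 4 Apoe_KO libraries and 7.85, 6.20, 13.4, 8.75 and 10.8 FPKM in the 5 WT libraries. Again Apoe_KO 2 and WT 3 were highest, Apoe_KO 4 and 3 were lowest, and the groups overlapped. The log2 fold change was -0.37 (SE 0.26, limma adjusted p = 0.408, 95% interval -0.95 to 0.20). Its other family members Otop2 and Otop3 were near 0, with Otop2 at 0 in every library and Otop3 at most 0.022 FPKM.

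The tissue-restricted cytochrome c oxidase subunits Cox7a1 and Cox8b followed the same libraries. Both belong to the last complex of the respiratory chain and are made in heart, skeletal muscle and brown fat. Cox7a1 (ENSMUSG00000074218, chromosome 7, 30184144 to 30186078, plus strand) measured 55.9, 84.7, 36.02 and 38.9 FPKM in Apoe_KO and 42.1, 41.8, 83.5, 51.8 and 47.00 FPKM in WT, in the order of the replicate numbers. One library in each group, Apoe_KO 2 and WT 3, was far above the rest of its group, and the remaining libraries lay between 36.02 and 55.9 FPKM. Its log2 fold change was -0.02 (SE 0.28, limma adjusted p = 0.979, 95% interval -0.64 to 0.61). Cox8b (ENSMUSG00000025488, chromosome 7, 140898945 to 140900446, minus strand) measured 125, 201, 85.7 and 92.3 FPKM in Apoe_KO and 105, 129, 184, 125 and 125 FPKM in WT. The same pair of libraries was highest and Apoe_KO 3 and 4 were lowest, with a log2 fold change of -0.14 (SE 0.25, limma adjusted p = 0.769, 95% interval -0.70 to 0.42). Both genes lie on the chromosome of Apoe, Cox7a1 at a distance of 10.5 Mb and Cox8b at 121 Mb.

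Striated muscle uses the same subunits, so its markers were read beside them. Of 18 markers 9 were tested and 0 were called by limma (0 at an unadjusted p below 0.05 and 0 by voom). The shares over all tested genes were 7.35% called and 24.6% at an unadjusted p below 0.05. Under 1 FPKM in every library were 6 of the 18, among them Myl2, Myh7 and Ttn, the titin gene. Tnnc2 was at 0 in every library. The 2 markers of smallest p were Actn2 and Acta1. Actn2 was at 1.92 to 3.19 FPKM in Apoe_KO and 1.12 to 3.17 FPKM in WT. Its highest values were in Apoe_KO 2 and WT 3. Acta1 was at 14.96 FPKM in WT 3 and 0.725 to 3.404 FPKM in the rest of WT. In Apoe_KO it was at 0.596 to 2.97 FPKM and lowest in Apoe_KO 2. Log2 fold changes were 0.42 for Actn2 and -0.74 for Acta1 (limma adjusted p = 0.266 and 0.471). The 18 together summed to 9.69, 38.6, 16.6 and 22.4 FPKM in Apoe_KO 1 to 4 and to 21.7, 35.6, 90.3, 15.01 and 13.6 FPKM in WT 1 to 5, against 85.7 to 201 FPKM in Apoe_KO and 105 to 184 FPKM in WT for Cox8b alone. The sum was highest in WT 3 and, within Apoe_KO, in Apoe_KO 2, the libraries highest in both subunits, and its part in their levels was not tested.

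Within a library the restricted subunits were set beside their widely made paralogs, which share the same place in the complex. The ratio of Cox8b to Cox8a was 0.485, 0.578, 0.352 and 0.363 in Apoe_KO 1 to 4 and 0.368, 0.475, 0.542, 0.393 and 0.452 in WT 1 to 5. The groups covered the same range, and the difference of mean log2 ratios was -0.02 (exact permutation test, two-sided, p = 0.889, smallest possible 0.00794). The ratio of Cox7a1 to Cox7a2 was 0.612, 0.752, 0.481 and 0.477 in Apoe_KO and 0.504, 0.515, 0.808, 0.552 and 0.511 in WT, where WT 3 stood above the others. The exact permutation test gave p = 1 for a difference of 0.01. Ucp1 was also divided by Adipoq, the adiponectin gene of adipocytes, which had 262, 497, 298 and 382 FPKM in Apoe_KO and 359.8, 404, 487, 544 and 404 FPKM in WT. This ratio was 0.665, 0.924, 0.492 and 0.563 in Apoe_KO and 0.511, 0.558, 0.936, 0.455 and 0.839 in WT, with 2 of 4 Apoe_KO libraries below the WT mean. Its mean was 0.661 ± 0.189 in Apoe_KO (SD, n = 4) and 0.660 ± 0.214 in WT (SD, n = 5), a log2 difference of 0.02 (two-sided exact permutation test, p = 0.984). All 3 p-values were 1 after Benjamini-Hochberg adjustment over the 3 ratios. The direction of each of these small differences turned when single libraries were left out.

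**Figure D2:**
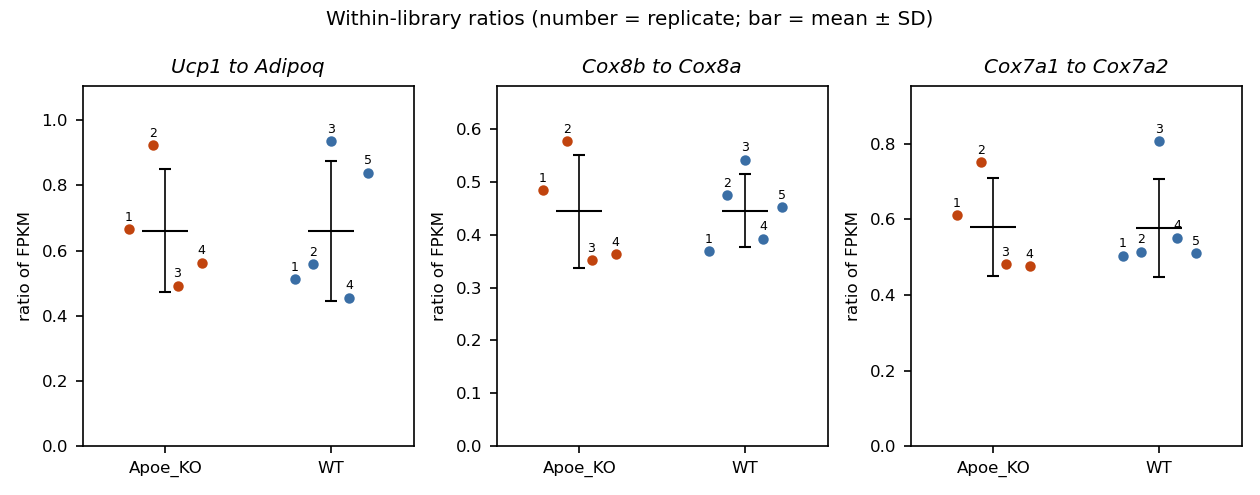
Ratios of FPKM within each library for Ucp1 to Adipoq, Cox8b to Cox8a and Cox7a1 to Cox7a2, with Apoe_KO (orange) left of WT (blue), replicate numbers above the points and bars for the mean ± SD (n = 4 and n = 5). The groups cover the same range in all 3 panels, and Apoe_KO 2 and WT 3 are the highest of their groups in each.

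Among the genes of lipid droplets and fatty acid handling, Cidea was the most abundant and Acot11 had the largest difference between genotypes. Cidea (ENSMUSG00000024526, chromosome 18, 67343604 to 67367785, plus strand), a lipid droplet protein that drives the transfer of lipid between droplets, was at 212, 305, 146 and 127 FPKM in Apoe_KO and 166, 191, 299, 213 and 202 FPKM in WT. Apoe_KO 4 and 3 were the lowest of all, Apoe_KO 2 and WT 3 the highest, and the log2 fold change was -0.17 (SE 0.26, limma adjusted p = 0.719, 95% interval -0.75 to 0.40). Elovl3 (ENSMUSG00000038754, chromosome 19, 46131897 to 46135694, plus strand) encodes an elongase of very long chain fatty acids that is induced by cold in brown fat. It had 3.53, 9.56, 4.09 and 3.25 FPKM in Apoe_KO, where Apoe_KO 2 stood alone above the rest, and 4.23, 4.13, 6.18, 7.45 and 8.45 FPKM in WT, where WT 5 was highest. Its log2 fold change was -0.28 (SE 0.29, limma adjusted p = 0.598, 95% interval -0.94 to 0.38). Elovl3 rested on 118 to 350 reads a library and overlaps Pitx3 on the other strand, so its reads may include some of that gene, since the counting is not stated to use strand. Pank1 (ENSMUSG00000033610, chromosome 19, 34806940 to 34879455, minus strand), a pantothenate kinase that takes the first step of coenzyme A synthesis, was at 18.1, 19.7, 9.74 and 8.97 FPKM in Apoe_KO and 12.1, 15.3, 22.9, 16.2 and 16.7 FPKM in WT. Apoe_KO 3 and 4 were below every other library, Apoe_KO 1 and 2 were above all WT libraries except WT 3, and the log2 fold change was -0.27 (SE 0.25, limma adjusted p = 0.548, 95% interval -0.84 to 0.29).

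Acot11 (ENSMUSG00000034853, chromosome 4, 106744555 to 106804998, minus strand) encodes a thioesterase that splits long chain fatty acyl-CoA into free fatty acid and coenzyme A, and in mice it is best known from brown fat. Its level was 9.57, 12.00, 9.54 and 7.03 FPKM in Apoe_KO libraries 1 to 4 and 15.8, 11.2, 15.9, 15.2 and 11.9 FPKM in WT libraries 1 to 5. All 4 Apoe_KO libraries were below the WT mean, and the groups overlapped through Apoe_KO 2, which was above WT 2 and WT 5. The mean level was 9.53 ± 2.03 FPKM in Apoe_KO (SD, n = 4) and 14.01 ± 2.27 FPKM in WT (SD, n = 5), and the log2 fold change of -0.52 (SE 0.15, 95% interval -0.85 to -0.18) missed the threshold with a limma adjusted p of 0.0662. Over the alternatives tried, its adjusted p ran from 0.0319 to 0.418 and passed in 2 of 19, at 0.0489 with a filter of 10 FPKM and at 0.0319 without Apoe_KO 2, and its log2 fold change stayed negative (-0.63 to -0.33). Acot11 overlaps Fam151a on the other strand, so that its level is uncertain to the extent that reads of both were counted together.

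Dio2 and Ppargc1a, a pair whose transcription responds to cyclic AMP, had log2 fold changes near 0. Dio2 (ENSMUSG00000007682, chromosome 12, 90724552 to 90738438, minus strand), the deiodinase that turns thyroxine into active triiodothyronine inside the cell, had 21.96, 23.4, 16.97 and 18.5 FPKM in Apoe_KO and 14.7, 14.9, 30.4, 18.3 and 21.5 FPKM in WT. It was the only one of the 10 with a positive log2 fold change, 0.06 (SE 0.20, limma adjusted p = 0.887, 95% interval -0.39 to 0.51). WT 3 was the highest library, WT 1 and 2 were the lowest, and the Apoe_KO libraries lay between them. The antisense gene Gm26512 overlaps Dio2 and its reads could not be told apart. Ppargc1a (ENSMUSG00000029167, chromosome 5, 51454250 to 51567726, minus strand), a coactivator of mitochondrial biogenesis, had 5.73, 6.63, 2.06 and 2.53 FPKM in Apoe_KO and 2.90, 2.80, 7.12, 3.74 and 5.61 FPKM in WT. Each group held both high and low libraries, 5.73 and 6.63 beside 2.06 and 2.53 FPKM within Apoe_KO, and the log2 fold change was -0.10 (SE 0.33, limma adjusted p = 0.884, 95% interval -0.84 to 0.65).

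By mean FPKM over the 9 libraries the genes ran from Ucp1 (272), Cidea (207) and Cox8b (130.3) through Cox7a1 (53.5), Dio2 (20.1), Pank1 (15.5), Acot11 (12.02) and Otop1 (8.41) to Elovl3 (5.65) and Ppargc1a (4.35). The ranges over the 9 libraries did not overlap for Cox8b and Cox7a1 or for Cox7a1 and Dio2, and overlapped for the other 7 pairs of neighbours. Read within each library, Cidea was above Cox8b, Acot11 above Otop1 and Otop1 above Elovl3 in all 9 libraries. Ucp1 was above Cidea, Dio2 above Pank1 and Pank1 above Acot11 in 8 of 9, and Elovl3 above Ppargc1a in 7 of 9. Ucp1, Cidea and Cox8b stood among the 240 most abundant tested genes, at ranks 90, 132 and 240. Ppargc1a, a regulator, stood at rank 8318.

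Libraries of one genotype differed widely in these genes. Within Apoe_KO the highest library exceeded the lowest by 3.13 times for Ucp1 and 3.21 times for Ppargc1a, and within WT by 2.48 and 2.54 times. Acot11 had the lowest within-group SD of the 10, with ratios of 1.71 within Apoe_KO and 1.42 within WT, and 8 of the 10 genes had a within-group SD at percentile 92.2 of tested genes or above. Apoe_KO 2 and WT 3 were each the highest library for 5 of the 10 genes and each among the top 2 for 9, and all 10 genes were above their own mean in both. In Apoe_KO 3 and Apoe_KO 4 none of the 10 was above its mean, and together they were the lowest library for 9 genes. The mean deviation of the 10 genes from their own 9-library means, on the log2 scale, was -0.05, 0.54, -0.48 and -0.48 in Apoe_KO 1 to 4 and -0.22, -0.19, 0.58, 0.09 and 0.20 in WT 1 to 5. Each group had 1 library far above its others, and the lowest means were those of Apoe_KO 3 and 4.

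**Figure D3:**
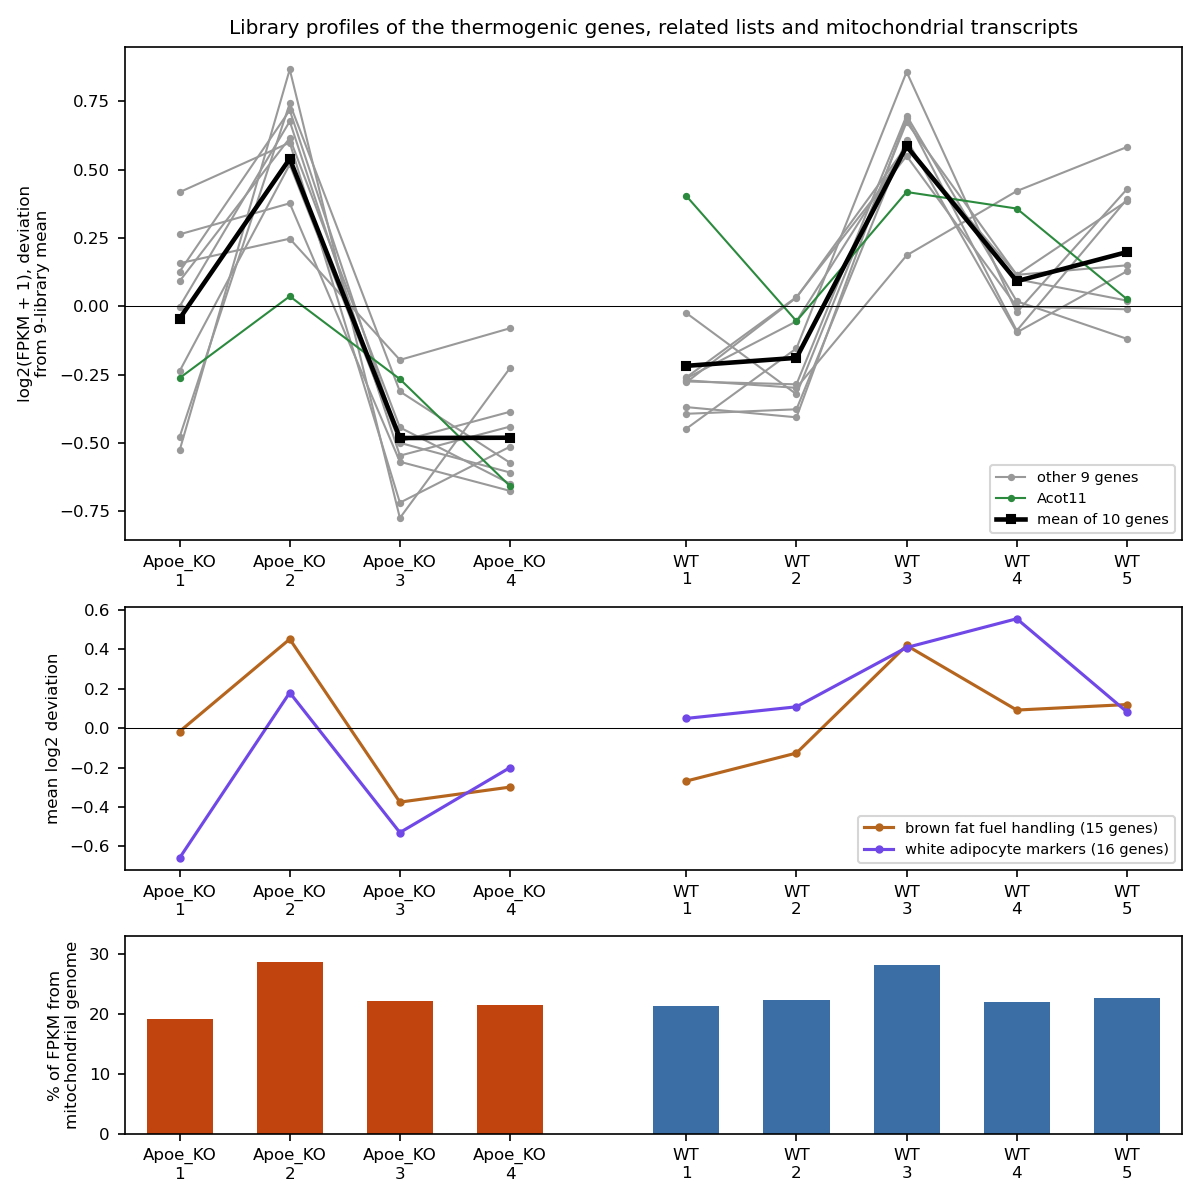
Upper panel, deviation of each thermogenic gene from its 9-library mean on the log2(FPKM + 1) scale in Apoe_KO 1 to 4 (left) and WT 1 to 5 (right), with Acot11 in green, the other 9 genes in grey and the mean of all 10 in black. Middle panel, the same mean deviation for 15 fuel handling genes and 16 white adipocyte markers, and lower panel, the percent of all FPKM from the mitochondrial genome. Lines join values of one gene or list and imply no order of replicates. Apoe_KO 2 and WT 3 are high in the upper and lower panels, while the white adipocyte markers are highest in WT 4 and lowest in Apoe_KO 1.

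Transcripts of the mitochondrial genome were also highest in Apoe_KO 2 and WT 3, and fuel genes had the sign of the thermogenic genes in every library. The mitochondrial genome gave 19.2, 28.7, 22.2 and 21.5% of all FPKM in Apoe_KO 1 to 4 and 21.4, 22.3, 28.2, 21.96 and 22.7% in WT 1 to 5. Outside those 2 libraries the share did not follow the thermogenic genes, since Apoe_KO 1 had the lowest share and Apoe_KO 3 and 4 were within 1 percentage point of WT 1, 2 and 4. The mean log2 deviation of 15 fuel handling genes was -0.02, 0.45, -0.38 and -0.30 in Apoe_KO and -0.27, -0.13, 0.42, 0.09 and 0.12 in WT. Without Apoe_KO 2 and WT 3 together, 9 of the 10 thermogenic genes had negative log2 fold changes with a median of -0.31 and a range of -0.58 to 0.14, and limma called 0. Without Apoe_KO 2 alone, all 10 were negative with a median of -0.43, and Acot11 was called.

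Across the 9 libraries the 10 genes varied together to unequal degree. Pearson's r of log2(FPKM + 1) between pairs of the 10, which share libraries and depth, was 0.17 to 0.97 with a median of 0.79 over 45 pairs, given as a description. The 36 pairs without Acot11 had 0.46 to 0.97 with a median of 0.83, and the 9 pairs with Acot11 had 0.17 to 0.72 with a median of 0.50. Set against the mean of the other 9 genes in the same library, the within-group SD of Cidea was 0.13, down from 0.44 for its own level, that of Otop1 0.13 (0.44 for its own level) and that of Cox7a1 0.14 (0.48). Acot11 was the exception, at 0.35 (0.25 for its own level). Relative to the other 9, Acot11 averaged -0.19 in Apoe_KO and 0.15 in WT.

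By the root mean square distance between library profiles on the log2 scale, the 5 of 13210 ranked genes closest to Ucp1 were mt-Co3 (0.22), Atf3 (0.22), Gm28439 (0.26), Otop1 (0.28) and Slc25a20 (0.28), where the profile of Ucp1 itself had a root mean square of 0.56. mt-Co3 is a cytochrome c oxidase subunit of the mitochondrial genome, Atf3 a stress-induced transcription factor, and Slc25a20 the carrier that brings acylcarnitines into mitochondria. Gm28439 is annotated as an unprocessed pseudogene on chromosome 1, and reads of such copies can be hard to place. Atf3 had 10.9, 30.3, 10.99 and 11.5 FPKM in Apoe_KO and 8.31, 11.6, 21.1, 14.4 and 19.1 FPKM in WT, with Apoe_KO 2 and WT 3 highest. mt-Co3 had 97.1, 237, 88.3 and 85.96 FPKM in Apoe_KO and 98.4, 108, 189, 138 and 133 FPKM in WT, with the same libraries on top. Among the other thermogenic genes Cox8b ranked 6, Cox7a1 13, Cidea 25, Elovl3 31, Ppargc1a 54, Pank1 128 and Dio2 165, while Acot11 ranked 1587.

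**Figure D4:**
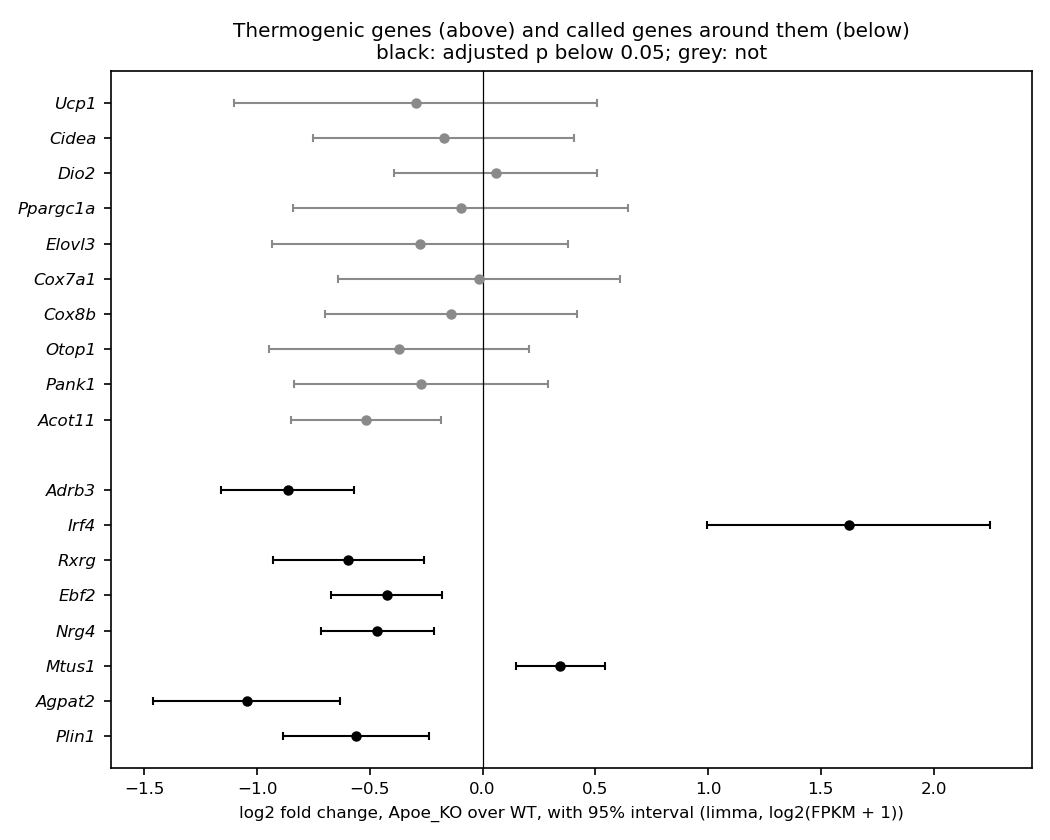
Log2 fold change of Apoe_KO over WT with its 95% interval from limma on log2(FPKM + 1) for the 10 thermogenic genes (above) and for 8 called genes of the related lists (below), black where the adjusted p was below 0.05. The intervals of 9 thermogenic genes include 0 and that of Acot11 does not, though its adjusted p was 0.0662.

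The receptor that starts the programme in mouse fat was lower in Apoe_KO, while none of the 10 thermogenic genes was called. Adrb3, the beta3-adrenergic receptor of adipocytes, was at 12.3, 20.2, 14.7 and 14.04 FPKM in Apoe_KO libraries 1 to 4 and 32.1, 24.1, 26.8, 29.1 and 29.6 FPKM in WT libraries 1 to 5. Every Apoe_KO library was below every WT library. The mean level was 15.3 ± 3.43 FPKM in Apoe_KO (SD, n = 4) and 28.4 ± 3.03 FPKM in WT (SD, n = 5), with a log2 fold change of -0.86 (SE 0.13, limma adjusted p = 0.00587). It was called in 17 of 19 alternatives, with adjusted p from 0.00151 to 0.116 and log2 fold changes from -1.02 to -0.63. The call was lost with the replicate number as a block (adjusted p = 0.0941) and with the mean of white adipocyte markers as a covariate (adjusted p = 0.116). As a percentage of Adipoq, a measure chosen after the values were seen and not tested, Adrb3 was 4.69, 4.07, 4.93 and 3.68 in Apoe_KO and 8.92, 5.96, 5.50, 5.36 and 7.34 in WT, and the groups did not overlap. The antisense gene Gm45470 overlaps Adrb3, so its reads may be included.

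Of 14 genes of adrenergic and cyclic AMP input, 13 were tested, 0 were called higher (3.43% of all tested genes were) and 1, Adrb3, lower (3.92%), with a median log2 fold change of -0.12. By limma, 6 of the 13 had an unadjusted p below 0.05, where 24.6% of all tested genes did. Adrb1 was low throughout, at 0.919 to 2.49 FPKM in Apoe_KO and 1.21 to 3.42 FPKM in WT. Prkaca, the catalytic subunit of protein kinase A, had a log2 fold change of -0.31 (limma adjusted p = 0.108).

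Among 18 regulators of brown adipocyte identity and gene expression, 16 were tested, 1 was called higher (3.43% of all tested genes were) and 2 lower (3.92%), with a median log2 fold change of -0.15. An unadjusted limma p below 0.05 was found for 7 of the 16, beside 24.6% of all tested genes. Irf4, a transcription factor that works with Ppargc1a in brown fat and is also made by lymphocytes and macrophages, was at 13.3, 13.7, 22.02 and 19.6 FPKM in Apoe_KO and 2.88, 7.09, 3.42, 3.98 and 8.30 FPKM in WT. The groups did not overlap, and Irf4 rose with a log2 fold change of 1.62 (SE 0.28, limma adjusted p = 0.0114). It was called in 18 of 19 alternatives (adjusted p 0.00499 to 0.153), and not with the white adipocyte covariate. The summed level of 13 lymphocyte markers was 18.4, 34.7, 18.5 and 422 FPKM in Apoe_KO 1 to 4 and 43.2, 491, 41.5, 38.5 and 27.4 FPKM in WT 1 to 5. Macrophage markers summed to 509, 503, 582 and 1001 FPKM in Apoe_KO and 425, 650.0, 392, 534 and 569 FPKM in WT, and the part of either cell type in the level of Irf4 was not tested.

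The 2 regulators that fell were Rxrg, a retinoid X receptor, and Ebf2, which marks brown adipocyte precursors and opens their enhancers. Rxrg had 3.12, 4.62, 2.63 and 3.06 FPKM in Apoe_KO and 5.04, 4.48, 6.03, 7.26 and 5.01 FPKM in WT, with a log2 fold change of -0.59 (SE 0.15, limma adjusted p = 0.0435). Ebf2 had 4.02, 4.68, 4.02 and 3.95 FPKM in Apoe_KO and 4.68, 5.19, 6.54, 6.66 and 6.89 FPKM in WT, with a log2 fold change of -0.43 (SE 0.11, limma adjusted p = 0.0464). The groups overlapped for both, and both calls were fragile, holding in 5 of 18 alternatives for Rxrg (adjusted p 0.0152 to 0.436) and 4 of 18 for Ebf2 (adjusted p 0.0252 to 0.374). Leaving out any one library except Apoe_KO 2 or WT 2 ended the call of Rxrg, and leaving out any one except Apoe_KO 2 or WT 1 ended that of Ebf2, which the antisense gene Gm10860 overlaps. Prdm16, the coregulator that sets brown adipocyte fate, had a log2 fold change of -0.39 (limma adjusted p = 0.141). Pparg, the master regulator of all adipocytes, had 0.03 (adjusted p = 0.935). Zic1 and Lhx8, markers of classical brown fat of the back, were under 1 FPKM in every library. Zic1 was highest in WT 3, at 0.503 FPKM, and at most 0.047 FPKM in any other library.

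**Figure D5:**
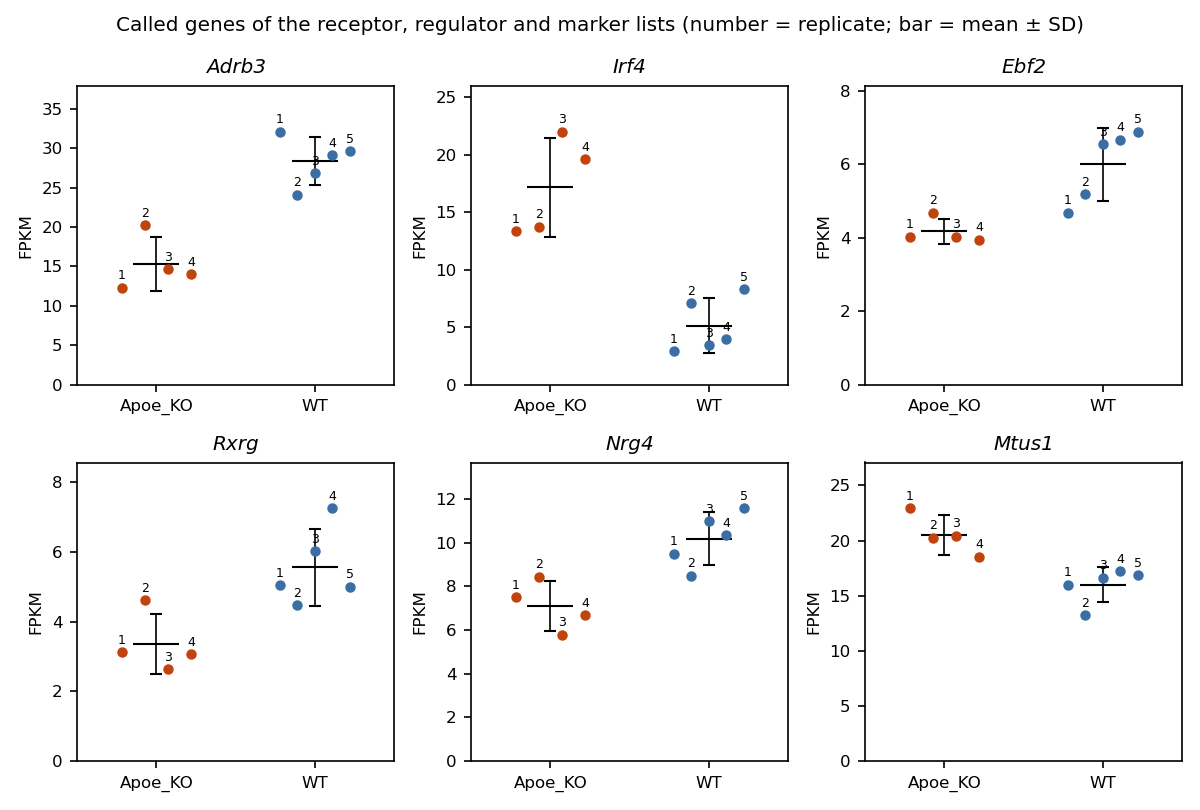
FPKM per library of 6 called genes around the thermogenic programme, Adrb3, Irf4, Ebf2, Rxrg, Nrg4 and Mtus1, with Apoe_KO (orange) left of WT (blue), replicate numbers above the points and bars for the mean ± SD (n = 4 and n = 5). Irf4 and Mtus1 are higher and the other 4 lower in Apoe_KO, and the groups overlap for Ebf2 and Rxrg.

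Of 14 further brown adipocyte markers 10 were tested, and 1 was called higher (3.43% of all tested genes were) and 1 lower (3.92%), with a median log2 fold change of -0.18. An unadjusted limma p below 0.05 was found for 2 of the 10, beside 24.6% of all tested genes. Nrg4, a growth factor secreted by brown fat, had 7.51, 8.44, 5.79 and 6.68 FPKM in Apoe_KO and 9.50, 8.49, 10.99, 10.3 and 11.6 FPKM in WT, a log2 fold change of -0.47 (SE 0.11, limma adjusted p = 0.0367). Mtus1, a further brown fat marker, had 22.95, 20.3, 20.4 and 18.5 FPKM in Apoe_KO and 15.99, 13.2, 16.6, 17.2 and 16.9 FPKM in WT, a log2 fold change of 0.34 (SE 0.09, limma adjusted p = 0.0447). The groups did not overlap for either, yet each was called in only 5 of 18 (Nrg4, adjusted p 0.0207 to 0.313) and 5 of 19 (Mtus1, adjusted p 0.0301 to 0.236) alternatives. The call of Nrg4 survived leaving out Apoe_KO 2 or WT 2 and no other single library, that of Mtus1 leaving out Apoe_KO 4 and no other. Both overlap antisense genes (Fbxo22 and Gm15625 for Nrg4, B430010I23Rik and Gm16192 for Mtus1). Slc36a2, an amino acid transporter and brown fat marker, was at 44.3 to 63.9 FPKM in Apoe_KO and 46.2 to 69.8 FPKM in WT and was not called. Fgf21 and Bmp8b, secreted by activated brown fat, were at most 0.056 and 0.042 FPKM.

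Genes that deliver fuel to brown fat mitochondria gave 0 calls among 15 tested of 16 listed (1 at an unadjusted p below 0.05, 0 by voom), where 7.35% of all tested genes were called and 24.6% had an unadjusted p below 0.05, with a median log2 fold change of -0.14. Lpl, lipoprotein lipase, had 198 ± 33.6 FPKM in Apoe_KO (SD, n = 4) and 262 ± 35.5 FPKM in WT (SD, n = 5), a log2 fold change of -0.41 (SE 0.14, limma adjusted p = 0.0960). Cpt2, which regenerates acyl-CoA inside mitochondria, had a log2 fold change of -0.34 (SE 0.17, limma adjusted p = 0.246). For heat production that does not need Ucp1, through creatine or calcium cycling, 8 of 9 genes were tested and 0 were called (3 at an unadjusted p below 0.05, 0 by voom). Gatm, which makes the creatine precursor, had 6.13, 10.9, 5.94 and 6.08 FPKM in Apoe_KO and 11.2, 10.4, 8.14, 12.5 and 9.08 FPKM in WT. Its log2 fold change was -0.47 (SE 0.17, limma adjusted p = 0.130), and Apoe_KO 2 was far above the other 3 Apoe_KO libraries. Without Apoe_KO 2 the adjusted p was 0.0150, within a range of 0.0101 to 0.766 over its alternatives. Slc6a8, the creatine transporter, had a log2 fold change of 0.24 (limma adjusted p = 0.119), and was called without Apoe_KO 4 at 0.0466, within a range of 0.0466 to 0.582.

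The paralogs of the thermogenic genes gave 0 calls among 17 tested of 24 found (3 at an unadjusted p below 0.05, 0 by voom), with a median log2 fold change of -0.12. Over all tested genes, 7.35% were called and 24.6% had an unadjusted p below 0.05. Ucp2, a widely made relative of Ucp1 that is common in immune cells, had 15.8, 18.6, 18.5 and 30.6 FPKM in Apoe_KO and 10.2, 17.98, 10.6, 13.1 and 13.3 FPKM in WT, a log2 fold change of 0.62 (SE 0.20, limma adjusted p = 0.0957). Apoe_KO 4 and WT 2, the libraries with high lymphocyte markers, were the highest of their groups, and without both Ucp2 was called at an adjusted p of 0.0482, within a range of 0.0482 to 0.267. Dnajb13 overlaps it on the other strand. Ucp3 had 6.00 to 10.6 FPKM in Apoe_KO and 8.41 to 13.4 FPKM in WT, with a log2 fold change of -0.43 (limma adjusted p = 0.183). Pank3 had -0.32 (limma adjusted p = 0.111) and was called without Apoe_KO 4 at 0.0396, within a range of 0.0396 to 0.670. The other 2 deiodinases were at or near 0, with Dio1 at 0 in every library and Dio3 at most 0.278 FPKM.

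White adipocyte markers, which include genes that brown adipocytes share, were lower in Apoe_KO in part. Of 16, all tested, 3 were called lower (3.92% of all tested genes were) and 0 higher (3.43%). By limma, 8 of the 16 had an unadjusted p below 0.05, where 24.6% of all tested genes did. A negative log2 fold change was found for 15, beside 63.9% of all tested genes. The median was -0.45, against -0.22 for the thermogenic genes and -0.07 for all tested genes. Agpat2, an acyltransferase of triglyceride synthesis, had 70.7, 116, 63.7 and 71.1 FPKM in Apoe_KO and 146, 151, 172, 216 and 138 FPKM in WT. Every Apoe_KO library was below every WT library, with a log2 fold change of -1.05 (SE 0.19, limma adjusted p = 0.0117), and Egfl7 overlaps it on the other strand. Agpat2 was called in 16 of 19 alternatives (adjusted p 0.00269 to 0.115) and after leaving out any one library. Lep, the leptin gene, fell with a log2 fold change of -1.74 (SE 0.38, limma adjusted p = 0.0276), called in 12 of 19 alternatives (adjusted p 0.0175 to 0.294), and not without Apoe_KO 3, WT 1, WT 2 or WT 4. Plin1, the perilipin of lipid droplets, fell with -0.56 (SE 0.15, limma adjusted p = 0.0466), called in 6 of 19 (adjusted p 0.0213 to 0.437), and among single libraries left out only without Apoe_KO 2. For all 3 genes the highest adjusted p came from the white adipocyte covariate. That covariate is the mean of this list and includes these genes, so it cannot test how firm their calls were.

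The summed level of the white adipocyte markers was 3299.7, 5891, 3585 and 4649 FPKM in Apoe_KO 1 to 4 and 4629.6, 5174, 6035, 7143 and 5274 FPKM in WT 1 to 5. Apoe_KO 2 was within the WT range, Apoe_KO 4 was just above its lower end, and Apoe_KO 1 and 3 were below it. With the mean of these markers as a covariate, the log2 fold changes of the thermogenic genes were positive for 8 of 10, of which Dio2 was positive without the covariate too and 7 had changed sign, with a median of 0.27, a highest value of 0.51 and 0 called, and those of Pank1 and Acot11 stayed negative. Among 10 beige adipocyte markers 8 were tested and all 8 were negative, beside 63.9% of all tested genes. Their median was -0.40, and 1 was called lower (3.92% of all tested genes were). That gene, Hoxc8, a positional transcription factor, had 4.23, 3.79, 3.52 and 3.02 FPKM in Apoe_KO and 6.86, 6.00, 4.76, 8.16 and 4.65 FPKM in WT, a log2 fold change of -0.59 (SE 0.15, limma adjusted p = 0.0426). It was called in 4 of 18 alternatives (adjusted p 0.0375 to 0.243), and among single libraries left out only without WT 3 or WT 5.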

How the data were processed

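RNA of whole aorta was sequenced in 4 Apoe_KO and 5 WT libraries. Per the labels' protocols the RNA was depleted of ribosomal RNA, although the molecule is labelled polyA RNA. Limma and build GRCm38 are named in the submitters' processing notes. Not given in the sources used here are the aligner, counting program, annotation and strandedness. The single table that the authors deposited has 33293 genes and a header without a unit. The deposited values were taken as FPKM from the values themselves. Each was multiplied by the gene's union exon length in GENCODE mouse release 21 and by a depth for its library. That depth was fitted so that the products were whole reads. They were whole, within 0.1 read, for 97.6% to 97.9% of values worth up to 50 reads. Depths and read numbers given here are therefore inferred, not reported by the submitters. In the GENCODE annotation 33240 identifiers were found.

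The test was limma 3.58.1 in R 4.3.3 on log2(FPKM + 1), over the 13383 genes that reached 1 FPKM in 4 or more libraries (trend and robust options, genotype only, Benjamini-Hochberg threshold 0.05). Fold changes on this scale understate those of low genes. Intervals are limma's 95% intervals, not adjusted. Because the unit was FPKM, the count test that the design allowed for was not used. Ratios were compared by two-sided exact permutation tests. The limma steps were run on simulated data in which all genes had the same dispersion and libraries had no shared shifts. That run does not show how the test performs at the spread of the thermogenic genes. The fitted depth was 17.0 to 19.8 M reads, at which 1 read on 2 kb of exon equals 0.0253 to 0.0294 FPKM.

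The genes, lists and tests were chosen with earlier results of these data known. Genes named were all 10 thermogenic genes, up to 4 called genes of each list by smallest p or the 2 of smallest p where none was called, near paralogs, Adipoq, Apoe and the 5 genes closest to Ucp1. Genes named beyond this rule (Adrb1, Prkaca, Prdm16, Pparg, Zic1, Lhx8, Slc36a2, Fgf21, Bmp8b, Otop2, Otop3, Dio1, Dio3, Tnnc2, Myl2, Myh7 and Ttn) were chosen after their values were seen. Cox8c was not matched. Alternatives were voom on recovered reads, a white adipocyte covariate, the replicate number as a block, quantile normalization, median centring, a filter of 10 FPKM or none, a pseudocount of 0.1, each library left out, and WT 2 with Apoe_KO 4 left out. Leaving out WT 3 with Apoe_KO 2 was chosen after seeing the data. Other steps ran in Python 3.11.15 (pandas 2.3.3, numpy 2.4.6, matplotlib 3.10.9).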

Additional observations from a re-analysis of the deposited data

Results flagged for a closer look

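In 6 of 96 groups of values examined, a single library lay far from the rest of its group, by the share of the group's range that separates it from the nearest other library. Chance gives about 1 in 20 such groups. Gatm in Apoe_KO 2 was at 10.9 FPKM, with a gap of 0.951 of the Apoe_KO range. Ebf2 in Apoe_KO 2 was at 4.68 FPKM, with a gap of 0.890 of the range. Both values were the highest of the Apoe_KO group, and Apoe_KO 2 was also the Apoe_KO library highest in every one of the thermogenic genes. The ratio of Cox7a1 to Cox7a2 in WT 3 was -0.30 on the log2 scale, with a gap of 0.810 of the WT range. Mtus1 in WT 2 was the lowest of WT at 13.2 FPKM, with a gap of 0.717. Nkg7, a gene of cytotoxic lymphocytes, in WT 2 was the highest of WT at 5.28 FPKM, with a gap of 0.732, and that library was high in lymphocyte markers in general. Hsp90aa1, a chaperone, in WT 1 was the highest of WT at 138.9 FPKM, with a gap of 0.841.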

How the results depend on the processing

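The count of 0 called thermogenic genes stood in 17 of 19 alternatives and was 1 with a filter of 10 FPKM and 1 without Apoe_KO 2, in both cases Acot11. The directions of most of the 10 were not firm. With the white adipocyte covariate the log2 fold change turned to 0.51 for Ucp1, 0.24 for Cidea, 0.25 for Ppargc1a, 0.33 for Elovl3, 0.51 for Cox7a1, 0.33 for Cox8b and 0.079 for Otop1. Ppargc1a turned to 0.0050 with quantile normalization, and Cox7a1 to 0.052 with median centring and 0.036 without WT 2 and Apoe_KO 4. Leaving out single libraries gave -0.41 to 0.011 for Cidea, -0.034 to 0.22 for Dio2, -0.31 to 0.12 for Ppargc1a, -0.26 to 0.16 for Cox7a1 and -0.39 to 0.016 for Cox8b. Pank1 and Acot11 kept their negative sign in all 19. The cause was not tested.

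The number of genes called in all, 983, was 582 with a filter of 10 FPKM, 445 without a filter, 77 with the white adipocyte covariate, 377 without WT 2 and Apoe_KO 4, and 383 to 1259 with single libraries left out. Called regulators numbered 3 and 0 to 3 over the alternatives, genes of adrenergic and cyclic AMP input 1 and 0 to 2, other brown adipocyte markers 2 and 0 to 2, and white adipocyte markers 3 and 0 to 7. The 0 of the white adipocyte markers came only with the covariate, which is their own mean. The log2 ratio difference of Ucp1 to Adipoq was -0.013 without WT 3 and Apoe_KO 2 and -0.15 to 0.16 with single libraries left out, that of Cox8b to Cox8a was 0.091 without WT 2 and Apoe_KO 4 and -0.16 to 0.079, and that of Cox7a1 to Cox7a2 was -0.12 to 0.13.

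With the replicate number as a block, 181 genes were called, 0 of them thermogenic, and the ratio differences were 0.12, -0.013 and -0.032 in the order above. The numbers did not pair the samples, as the deviations of same-numbered libraries correlated at 0.26, -0.27, -0.13 and -0.22, and the highest correlation between the groups was 0.61, for Apoe_KO 4 and WT 2. WT 5 had no partner. The fewest reads behind any value of the 10 genes were 118, for Elovl3, and what share of the spread is counting error was not tested. With 4 against 5 libraries of that spread, the intervals of all the thermogenic genes except Acot11 included 0. Changes inside the intervals given were not excluded.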

Other observations

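Among markers of other cell types of the vessel wall, called genes were found in the lists of smooth muscle, endothelium and macrophages. Of all tested genes, 3.43% were called higher and 3.92% lower, and 24.6% had an unadjusted p below 0.05. Of 10 smooth muscle markers 2 rose in Apoe_KO, with a median log2 fold change of 0.27. Des, the desmin gene, had 31.6 ± 3.33 FPKM in Apoe_KO (SD, n = 4) and 23.8 ± 1.93 FPKM in WT (SD, n = 5) (log2 fold change 0.39, SE 0.09, limma adjusted p = 0.0246, 0.0157 to 0.153 over its alternatives). Synpo2, an actin-binding protein, had 52.6 ± 7.57 FPKM in Apoe_KO (SD, n = 4) and 38.4 ± 4.55 FPKM in WT (SD, n = 5) (log2 fold change 0.44, limma adjusted p = 0.0426, 0.0238 to 0.326 over its alternatives). Leaving out Apoe_KO 1, WT 1, WT 4 or WT 5 ended the call of Des, and leaving out Apoe_KO 1, Apoe_KO 3, WT 1, WT 2, WT 4 or WT 5 that of Synpo2. Of 10 endothelial markers 1 fell, Kdr, the main receptor for vascular endothelial growth factor, at 7.44, 11.6, 8.51 and 10.04 FPKM in Apoe_KO and 13.5, 12.9, 14.6, 15.1 and 16.1 FPKM in WT (log2 fold change -0.58, limma adjusted p = 0.0184, 0.00723 to 0.222 over its alternatives). Of 10 macrophage markers 1 rose, Lyve1, a hyaluronan receptor of resident macrophages and lymphatic vessels, at 40.2, 34.03, 46.3 and 59.8 FPKM in Apoe_KO and 21.1, 25.3, 21.02, 26.3 and 31.02 FPKM in WT (log2 fold change 0.81, limma adjusted p = 0.0196, 0.0104 to 0.192 over its alternatives). Both calls were lost without Apoe_KO 3. Fibroblast markers gave 0 calls among 10 by limma (4 at an unadjusted p below 0.05, 0 by voom), with Col1a1, a collagen chain, at a log2 fold change of -0.64 (adjusted p = 0.0592) and Pi16 at 0.34 (adjusted p = 0.0713). Lymphocyte markers gave 0 calls among 6 tested of 13 (0 at an unadjusted p below 0.05, 0 by voom), where Nkg7 had -0.65 (limma adjusted p = 0.347) and Gzma -0.27 (adjusted p = 0.605).

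Chaperones were higher in Apoe_KO. Hspb1, a small heat shock protein, was at 432, 368, 409 and 620.0 FPKM in Apoe_KO and 76.3, 84.3, 122, 105 and 94.01 FPKM in WT, a log2 fold change of 2.22 (SE 0.17, limma adjusted p = 0.000374). Hspa8 rose by 1.08, Hsph1 by 1.88 and Hsp90aa1 by 1.01 on the log2 scale (limma adjusted p = 0.000914, 0.00107 and 0.00256). Within Apoe_KO, the summed level of the 10 heat shock genes was 1814, 1627, 1453 and 1977 FPKM in libraries 1 to 4, so that Apoe_KO 2, highest in the thermogenic genes, was not highest in these.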
